A study of Danio rerio with 6 samples.

Results

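Neutrophils and macrophages are the main phagocytes of a zebrafish larva, and 10 genes that mark them were followed here in messenger RNA of larvae. The genes were taken from the deposited table by name: lyz, npsn and mpx of neutrophils, mpeg1.1, mfap4 and marco of macrophages, and coro1a, lcp1, ptprc and spi1b, which both cell types share. Each name stood on 1 gene ID, so the set held 10 of the 24470 genes in the table. All 10 averaged at least 10 normalized counts, the filter for testing, in 4-OI and in control libraries alike, and were among the 20352 genes tested. A normalized count is the number of reads of a gene divided by a factor for the library.

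The treated group, called 4-OI, held 3 libraries from larvae of the line Tg(Brn3C:mGFP) exposed to 2.5 µM 4-octyl itaconate, a cell-permeable itaconate ester, from 3 days post fertilization (dpf) for 48 h. The control group held 3 libraries from larvae of the same line, and every library was collected at 5 dpf. The transgene puts a membrane-bound green fluorescent protein under the control of brn3c sequences, which are active in hair cells. The sources used here give neither a vehicle for the controls nor how many larvae or clutches each library pooled. The replicates may therefore be technical, and p-values speak only of the spread among these 6 libraries.

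Larval neutrophils kill microbes with enzymes stored in granules, whereas macrophages engulf microbes and dying cells through surface receptors and degrade them in lysosomes. Both arise from myeloid progenitors that depend on the transcription factor Pu.1. Itaconate itself is known as a metabolite of activated macrophages, made in mammals by the enzyme ACOD1, and the study addresses Irg1l and itaconate in the growth of neuromasts, the sense organs of the lateral line.

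Of the 10 genes, 7 rose in 4-OI larvae (lyz, npsn, mpx, mpeg1.1, mfap4, coro1a and lcp1), none fell, and marco, ptprc and spi1b did not pass the test (limma, adjusted p of 0.05). Differences were widespread in these libraries: 69.3% of all tested genes passed, with 35.0% higher and 34.3% lower in 4-OI. The median log2 difference, 4-OI minus control, was 2.62 over the 10 genes and 0.01 over all tested genes. Larvae were sampled in bulk, so more cells of a type, more RNA per cell and a different mix of sampled tissues cannot be told apart. Read shares of several tissues differed widely between the groups, as given below. The 7 rises were also called by edgeR, where 36.0% of genes rose and 32.9% fell, and by DESeq2, where 35.5% rose and 33.7% fell, and neither tool called a fall. In the same 7 genes all 4-OI libraries lay above all control libraries, as in 37.4% of tested genes, and in none did they lie below, as in 36.8%.

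**Figure D1:**
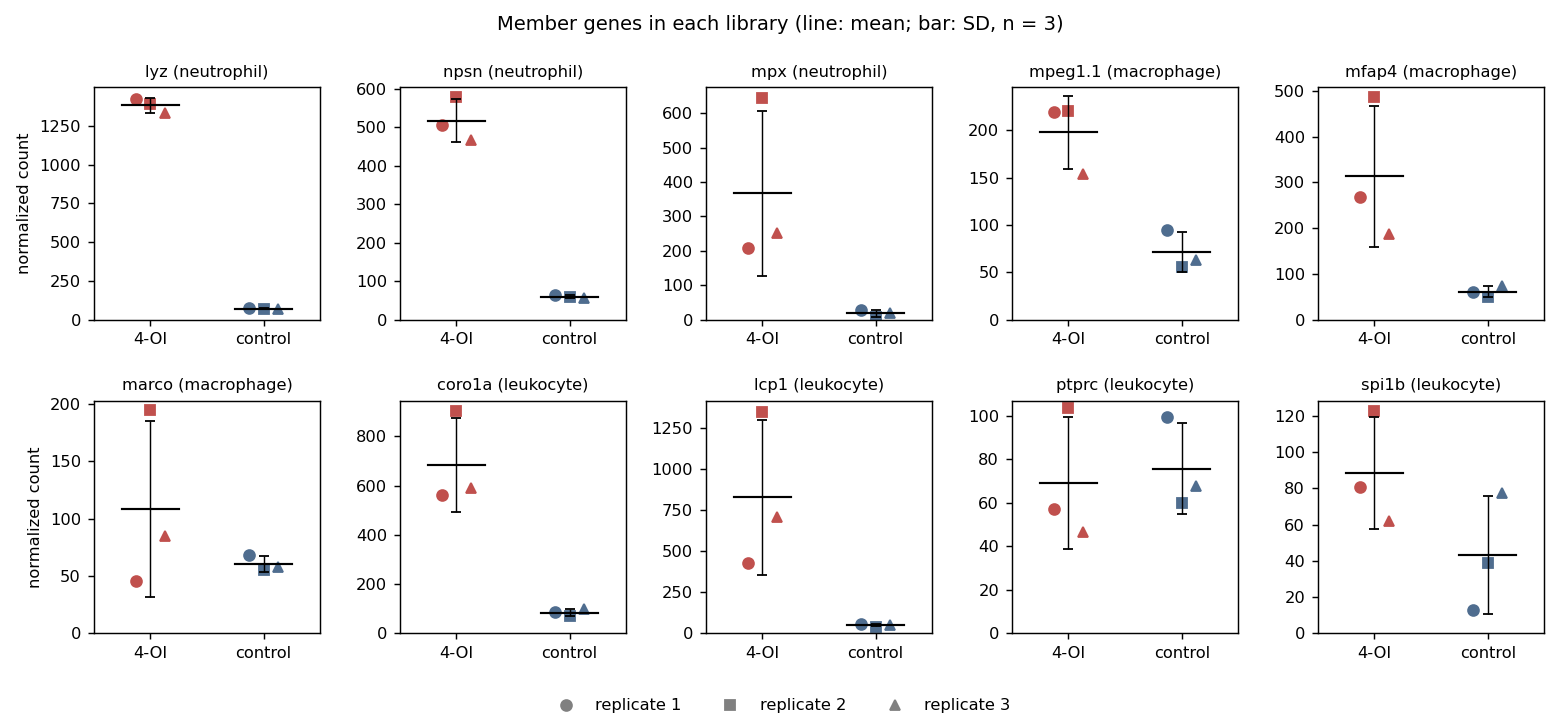
Normalized counts of the 10 genes in each library, 4-OI left and control right, with each panel's axis starting at 0; symbols give the replicate, the line the mean and the bar the SD (n = 3 per group). The 4-OI libraries lie above all control libraries for lyz, npsn, mpx, mpeg1.1, mfap4, coro1a and lcp1, and the groups overlap for marco, ptprc and spi1b.

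The gene lyz (ENSDARG00000057789) encodes lysozyme, which cuts bacterial cell walls and is a standard mark of zebrafish neutrophils. It stood at 1426, 1389 and 1333 normalized counts in 4-OI replicates 1, 2 and 3, against 74.2, 70.0 and 66.2 in control replicates 1, 2 and 3. No other of the 10 genes was so even among treated libraries: the highest 4-OI library exceeded the lowest only 1.07-fold, and the highest control library exceeded the lowest 1.12-fold. The group means of 1383 ± 47.0 and 70.1 ± 3.97 normalized counts (SD, n = 3 each) differed 19.7-fold, a log2 difference of 4.28 (SE 0.15, limma adjusted p = 5.85e-07). That log2 difference was higher than those of 98.2% of all tested genes.

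The metalloprotease gene npsn (ENSDARG00000010423), which encodes nephrosin, had 507, 577 and 466 normalized counts in 4-OI libraries and 63.2, 60.0 and 56.4 in control libraries. All 4-OI values lay far above the control values, which differed little among themselves. Its log2 difference was 3.08 (SE 0.18, limma adjusted p = 2.52e-06), or 8.63-fold between group means.

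Myeloid peroxidase, the product of mpx (ENSDARG00000019521), makes microbicidal oxidants in neutrophil granules. The gene stood at 209, 643 and 251 normalized counts in 4-OI libraries, with replicate 2 far above the other treated libraries. Control libraries held 29.1, 8.89 and 18.3 normalized counts, which rest on only 29, 8 and 13 reads. The groups did not overlap, as was the case in either direction for 74.1% of tested genes, and the log2 difference was 4.18 (SE 0.51, limma adjusted p = 0.000107). Group means differed 19.6-fold, and 12.2-fold without 4-OI replicate 2.

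Among the macrophage genes, mpeg1.1 (ENSDARG00000055290), for the pore-forming protein Perforin-2, had 219.7, 220.5 and 154 normalized counts in 4-OI libraries. Control libraries had 95.2, 55.6 and 63.4, all below the lowest treated value. The group means differed 2.77-fold, with a log2 difference of 1.48 (SE 0.27, limma adjusted p = 0.00122).

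The gene mfap4 (ENSDARG00000090783) belongs to a multigene family of secreted fibrinogen-related proteins, and its promoter is widely used to label zebrafish macrophages. It stood at 268, 486 and 188 normalized counts in 4-OI libraries and at 60.2, 48.9 and 73.3 in control libraries, without overlap. Its log2 difference was 2.26 (SE 0.35, limma adjusted p = 0.0004), or 5.17-fold between group means. How reads shared between family members were divided is not stated in those sources, which leaves this value uncertain.

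Values of marco (ENSDARG00000059294), a scavenger receptor that binds bacteria and particles, overlapped between groups. The 4-OI libraries had 46.0, 195 and 85.0 normalized counts and the control libraries 68.2, 55.6 and 57.8. The first 4-OI library was thus the lowest of all 6 and the second the highest. The log2 difference of 0.59 had a 95% confidence interval of -0.46 to 1.65 and did not pass (limma adjusted p = 0.278). Without 4-OI replicate 1 it was 1.08 and passed (limma adjusted p = 0.0171), whereas without 4-OI replicate 2 it was 0.052 (limma adjusted p = 0.904).

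Of the genes shared by leukocytes, coro1a (ENSDARG00000054610) encodes Coronin 1A, which regulates the actin cytoskeleton during migration and phagocytosis. It had 560.5, 902 and 589 normalized counts in 4-OI libraries and 86.2, 68.9 and 98.7 in control libraries, without overlap. The means differed 8.08-fold, with a log2 difference of 2.98 (SE 0.24, limma adjusted p = 9.41e-06).

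The actin-bundling protein L-plastin is encoded by lcp1 (ENSDARG00000023188), a common stain for all larval leukocytes. It stood at 430.5, 1348 and 706 normalized counts in 4-OI libraries, a 3.13-fold range, and at 56.1, 41.1 and 53.6 in control libraries. Even the lowest treated library lay well above the controls. The log2 difference was 3.87 (SE 0.37, limma adjusted p = 2.65e-05), or 16.5-fold between means.

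Not so ptprc (ENSDARG00000071437), which encodes the phosphatase Cd45 found on leukocytes. The 4-OI libraries had 57.2, 103 and 46.8 normalized counts, and the control libraries 99.3, 60.0 and 67.7. The groups overlapped, and the log2 difference of -0.18 (95% confidence interval -0.98 to 0.63) did not pass (limma adjusted p = 0.67). Its sign turned to positive with upper-quartile scaling and without 4-OI replicate 3 or control replicate 1.

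The Pu.1 gene spi1b (ENSDARG00000000767), for the transcription factor that directs myeloid fate, had 80.7, 123 and 62.0 normalized counts in 4-OI libraries. Control libraries spread 5.95-fold, over 13.03, 38.9 and 77.5 normalized counts, so that control replicate 3 lay above 4-OI replicate 3. The log2 difference of 1.29 (95% confidence interval -0.03 to 2.60) did not pass (limma adjusted p = 0.075). It did so with upper-quartile scaling (1.60, limma adjusted p = 0.0364) and without control replicate 3 (1.86, limma adjusted p = 0.0149).

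**Figure D2:**
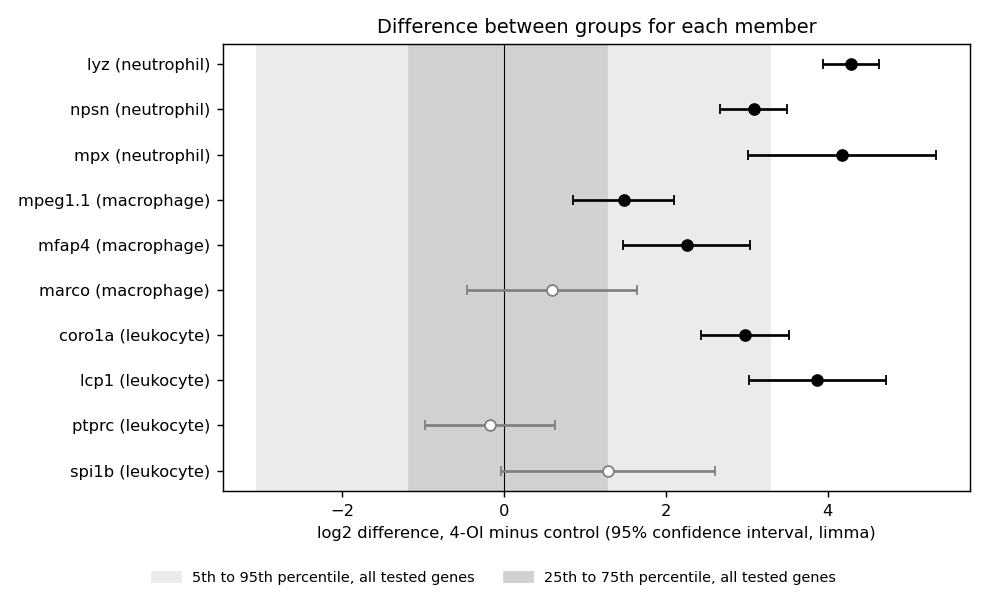
Log2 difference (4-OI minus control) of each gene with its 95% confidence interval from limma; filled points passed an adjusted p of 0.05, and the shaded bands give the 25th to 75th and the 5th to 95th percentile of all tested genes. The points of lyz, mpx and lcp1 lie beyond the 95th percentile, at 3.28, while those of marco and ptprc lie within the inner band; ptprc, at -0.18, changed sign with upper-quartile scaling.

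Ratios between the genes within a library do not depend on how libraries were scaled, and they showed that the 10 genes did not move in proportion. These ratios are of reads, not per gene length, so only their change between libraries can be read. The summed reads of lyz, npsn and mpx were 4.01, 2.90 and 4.80 times those of mpeg1.1, mfap4 and marco in 4-OI libraries, against 0.744, 0.868 and 0.725 times in control libraries. Every treated library lay above every control library, with a log2 difference in this ratio of 2.30, and 2.13 to 2.50 with each library left out in turn. Sums of this kind are carried by the genes with most reads, here lyz. The ratio holds for these chosen genes and not for the cell types at large. Other neutrophil and macrophage genes, listed below, took similarly raised mean shares of reads, 6.48-fold and 5.86-fold those of control libraries.

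Within the neutrophil genes, lyz over npsn stood at 2.81, 2.41 and 2.86 in 4-OI libraries and at 1.17, 1.17 and 1.18 in control libraries. The ratio of lyz to mpx overlapped between groups, at 6.84, 2.16 and 5.31 in 4-OI libraries and 2.55, 7.88 and 3.62 in control libraries. The control values of that ratio rest on the few mpx reads given above.

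Relative to lcp1, the remaining leukocyte and macrophage genes were lower in every 4-OI library than in any control library. The log2 difference of lcp1 was higher than those of 97.2% of all tested genes, so most genes are lower relative to it. These ratios therefore restate the large rise of lcp1 and are not a trait of these genes. The ratio of ptprc to lcp1 was 0.133, 0.0768 and 0.0662 in 4-OI libraries and 1.77, 1.46 and 1.26 in control libraries. For marco over lcp1 the values were 0.107, 0.144 and 0.120 in 4-OI libraries and 1.21, 1.35 and 1.08 in control libraries. For mpeg1.1 over lcp1 they were 0.510, 0.164 and 0.218 in 4-OI libraries and 1.70, 1.35 and 1.18 in control libraries. Ratios of coro1a, mfap4 and spi1b to lcp1 were likewise lower without overlap, by 0.90, 1.62 and 2.58 on the log2 scale, while those of lyz, npsn and mpx overlapped between groups. Ratios of chosen genes were not tested.

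**Figure D3:**
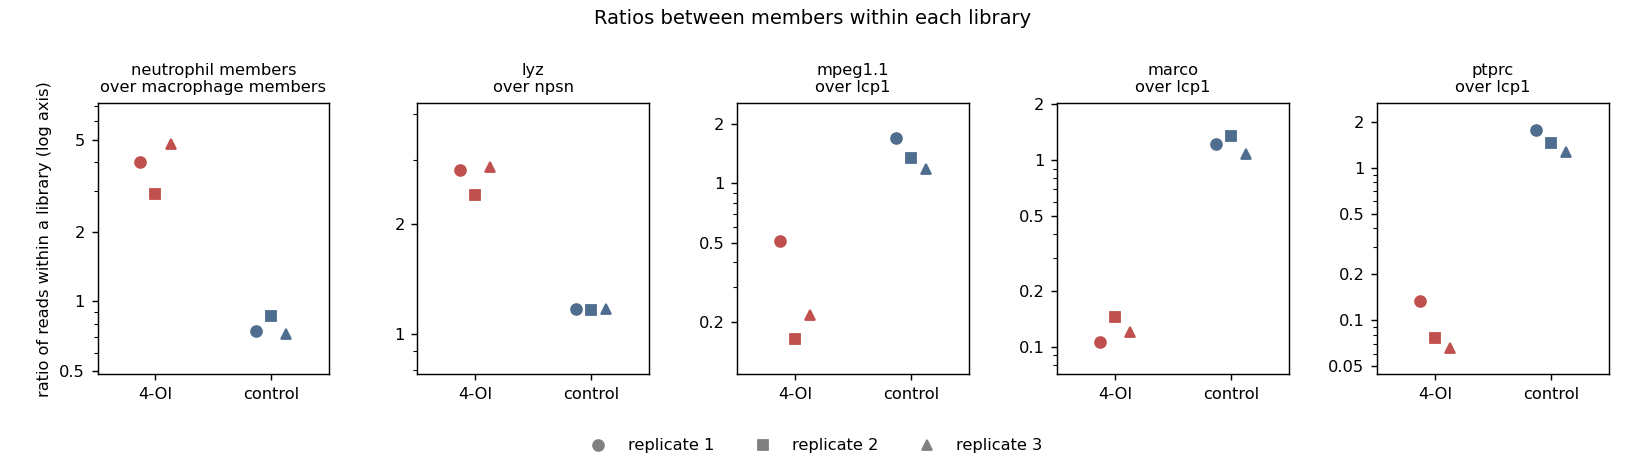
Ratios of reads between genes within each library on log axes, 4-OI left and control right, with a symbol per replicate. The ratio of lyz, npsn and mpx to mpeg1.1, mfap4 and marco and that of lyz to npsn were higher in all 4-OI libraries. The ratios of mpeg1.1, marco and ptprc to lcp1 were lower. The log2 difference of lcp1 itself was higher than those of 97.2% of tested genes.

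Other genes of the same cells were read from lists. Over all tested genes, 35.0% rose and 34.3% fell in 4-OI. Of 22 other neutrophil gene IDs in the table, 19 were tested, of which 15 rose, none fell and 4 did not pass (median log2 difference 2.69); 5 of the 19 reached the filter only through the 4-OI libraries. The smallest p-values belonged to lect2l, padi2, srgn and il6r. The chemotactic protein gene lect2l had 2473, 3528 and 1669 normalized counts in 4-OI libraries and 14.0, 18.9 and 26.8 in control libraries, a log2 difference of 6.91 (limma adjusted p = 1.17e-06). Its mammalian relative LECT2 is made by liver, and complement and other plasma protein genes of liver took 1.53% to 1.69% of reads in 4-OI and 0.0319% to 0.0423% in control libraries; the part of liver in this value was not tested. The proteoglycan gene srgn, of granules, rose 3.89-fold, and padi2 and the cytokine receptor gene il6r rose 3.94-fold and 7.92-fold.

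The receptor for granulocyte colony-stimulating factor, csf3r, through which neutrophil production is driven, had 32.5, 105 and 53.5 normalized counts in 4-OI libraries. Control libraries had 1.00, 1.11 and 4.23, that is 1 to 3 reads each, so the fold is poorly known. It reached the filter only through the 4-OI libraries, so its test is not given as support. The oxidase subunit gene cybb, picked out after its values were seen, had 123, 296 and 59.18 normalized counts in 4-OI libraries and 140.4, 128 and 107 in control libraries. It overlapped between groups and did not pass (limma adjusted p = 0.922).

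Of 29 other macrophage gene IDs, 24 were tested, of which 17 rose, 2 fell and 5 did not pass (median 1.95). Over all tested genes 35.0% rose and 34.3% fell. Of the 24, 5 reached the filter only through the 4-OI libraries. The colony-stimulating factor 1 receptor gene csf1ra, needed for macrophages and also active in pigment cells, had 182, 242 and 178 normalized counts in 4-OI libraries and 12.03, 7.78 and 4.23 in control libraries. The groups did not overlap, but csf1ra is among the genes that reached the filter only through the 4-OI libraries, so its test is not given as support. The related perforin gene mpeg1.2 had 140.1, 321 and 121 normalized counts in 4-OI libraries and 29.1, 40.0 and 32.4 in control libraries, 5.73-fold higher; reads shared by mpeg1.1 and mpeg1.2 could have been divided between them.

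The macrophage fate gene irf8 had 84.1, 142 and 61.1 normalized counts in 4-OI libraries and 30.1, 16.7 and 52.2 in control libraries. It rose by a log2 difference of 1.56 (limma adjusted p = 0.0144), which ranged up to an adjusted p of 0.0577 over the alternatives and did not pass without 4-OI replicate 2 or control replicate 2, or with scaling to reads without mitochondrially encoded genes. The smallest p-values of the list belonged to apoeb, lgmn, hmox1a and grn1, which rose 11.9-fold, 4.62-fold, 16.7-fold and 13.9-fold. Of these, apoeb of lipid transport, lgmn of lysosomes and hmox1a of heme breakdown are also expressed outside macrophages. The falls were those of the complement gene c1qa and the chemokine gene ccl34b.1, by 1.68 and 0.60 on the log2 scale. The call of c1qa was lost in 1 alternative, without control replicate 2, and that of ccl34b.1 in 12.

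Of 29 gene IDs shared by leukocytes, 25 were tested, of which 16 rose, 4 fell and 5 did not pass (median 1.69). Over all tested genes 35.0% rose and 34.3% fell. Of the 25, 2 reached the filter only through the 4-OI libraries. The second Pu.1 gene, spi1a, passed where spi1b did not: it had 80.7, 165 and 75.4 normalized counts in 4-OI libraries and 26.1, 27.8 and 12.7 in control libraries, 4.83-fold higher (limma adjusted p = 0.00155). The difference between spi1a and spi1b was not tested.

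The transcription factor gene cebpa rose 2.43-fold and the actin regulator genes arpc1b and hcls1 rose 3.50-fold and 4.59-fold. The kinase gene lyn stood on a pair of gene IDs that moved in opposite directions, by -2.76 and 2.16 on the log2 scale, so its direction is uncertain. The other genes of the list that fell, named after their values were seen, were the signalling genes pik3cd and syk and the adaptor gene tyrobp, by 1.60 to 2.44 on the log2 scale. Among genes with names like those of the set, the coronin genes coro1b and coro1cb, which are not restricted to leukocytes, fell by 1.31 and 2.11 on the log2 scale, and coro1ca rose by 1.38. The adaptor gene lcp2a, unrelated to lcp1 in sequence, rose by 1.16 (limma adjusted p = 0.0263), and over the alternatives its adjusted p reached 0.144.

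**Figure D4:**
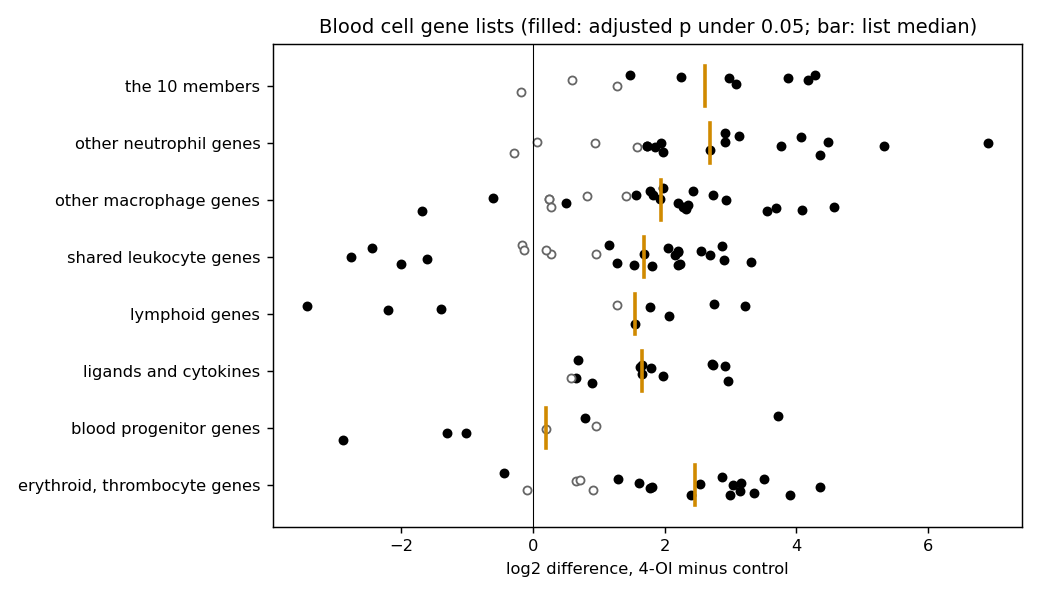
Log2 differences (4-OI minus control) of the tested genes in each blood cell list; filled points passed an adjusted p of 0.05 by limma, open points did not, and the bar is the list median. Medians lie at 2.62 for the 10 genes, 2.69, 1.95 and 1.69 for the other neutrophil, macrophage and shared leukocyte genes, 1.55 for lymphoid genes, 1.66 for ligands and cytokines, 0.20 for blood progenitor and 2.47 for red cell and thrombocyte genes.

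Ligands for the phagocyte receptors were measured in the same libraries. The growth factor genes csf1b and il34, whose products bind the Csf1 receptor, rose by 1.65 and 1.63 on the log2 scale (limma adjusted p = 0.00118 and 0.00306). For csf1a the log2 difference was 0.58 and did not pass (limma adjusted p = 0.108). The Csf3 genes lay under the filter: csf3a had 6.73, 7.87 and 4.77 normalized counts in 4-OI libraries and 3.01, 3.33 and 1.41 in control libraries, and csf3b had 8.97, 15.7 and 0 in 4-OI libraries and 7.02, 6.67 and 5.64 in control libraries. In all, 12 of 13 tested ligand and cytokine genes rose and none fell (median 1.66), against 35.0% and 34.3% of all tested genes. Among the 13, il1b was also counted with the macrophage genes. The filter was reached only through the 4-OI libraries by 2 of the 13, cxcl8b.1 included. The chemokine genes cxcl12a and ccl25b rose 1.87-fold and 7.19-fold. For cxcl8b.1, a neutrophil attractant, group means differed 8.88-fold, but its test is not given as support.

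Lymphoid genes were examined because ptprc, coro1a and lcp1 are also expressed by lymphocytes. Only 9 of 16 gene IDs in the table reached the filter, and 3 of the 9 did so only through the 4-OI libraries. Of the 9, 5 rose and 3 fell (median 1.55), against 35.0% and 34.3% of all tested genes. The recombination gene rag1 had 178, 56.2 and 85.0 normalized counts in 4-OI libraries and 27.1, 21.1 and 18.3 in control libraries (log2 difference 2.07, limma adjusted p = 0.00238). The T cell kinase gene lck was low, with 33.6, 11.2 and 10.5 normalized counts in 4-OI libraries and 1.00, 0 and 7.05 in control libraries; it is among those that reached the filter only through the 4-OI libraries, so its test is not given as support. The falls were those of bcl11ba, tox and gata3, by 3.43, 2.19 and 1.39 on the log2 scale, genes that the nervous system also expresses. Neuron and glia markers took 0.0557% to 0.0836% of reads in 4-OI and 0.472% to 0.517% in control libraries; their part in these falls was not tested.

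Of 7 blood progenitor genes, kita and myb rose while tal1, meis1b and gata2a fell. The call of myb was lost in 1 alternative, scaling to reads without mitochondrially encoded genes. Red cell and thrombocyte genes rose in 15 of 20 tested cases and fell in 1, and 2 of the 20 reached the filter only through the 4-OI libraries. The fall was that of cahz (log2 difference -0.44), whose call was lost in 11 alternatives. Over all tested genes 35.0% rose and 34.3% fell.

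Treated libraries differed among themselves in a way most of the 10 genes shared. In 9 of the 10, all but lyz, 4-OI replicate 2 held the highest value of the 3 treated libraries, by a small margin in mpeg1.1, against 31.0% of all tested genes. The ratio of 4-OI replicate 2 to the mean of 4-OI replicates 1 and 3 was 2.97 for marco, 2.80 for mpx, 2.37 for lcp1, 2.13 for mfap4 and 1.99 for ptprc. It was close to 1 for lyz, at 1.01, and low for mpeg1.1 and npsn, at 1.18 and 1.19. Replicate 2 was also the highest treated library for 20 of 25 tested genes shared by leukocytes and 10 of 19 other neutrophil genes. The same held for 11 of 24 other macrophage genes and 2 of 9 lymphoid genes. Lists outside leukocytes varied, with 8 of 15 neuron and glia genes and 6 of 16 liver plasma protein genes. The liver share, 37.5%, was near that of all tested genes. Replicate 2 was highest for 1 of 16 skeletal muscle genes, and for none of 20 tested red cell and thrombocyte genes, 12 skin genes or 14 eye genes.

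The itaconate synthesis genes had their highest value in the same library. The gene irg1l had 383, 573 and 157 normalized counts in 4-OI replicates 1, 2 and 3 and 21.1, 27.8 and 63.4 in control libraries, while acod1 had 17.9, 270.0 and 18.1 in 4-OI libraries and 6.02, 5.56 and 15.5 in control libraries. The first rose 9.92-fold (limma adjusted p = 0.000556), and acod1 did not pass (log2 difference 2.34, limma adjusted p = 0.0583). Over the alternatives the log2 difference of acod1 ran between 1.06 and 3.57. It passed in 5 of them: upper-quartile scaling, array weights, edgeR, and without 4-OI replicate 1 or 3. However, acod1 reached the filter only through the 4-OI libraries, so its test is not given as support. All 7 rises remained called with 4-OI replicate 2 left out, where 32.0% of tested genes rose and 32.7% fell, with log2 differences of 4.28 for lyz, 3.00 for npsn, 3.68 for mpx, 1.39 for mpeg1.1, 1.89 for mfap4, 2.76 for coro1a and 3.44 for lcp1. Among control libraries, replicate 1 was highest for 7 of the 10 genes, against 37.1% of all tested genes, and replicate 3 for the other 3. Control replicate 2 was lowest for 7 of the 10 and highest for none.

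**Figure D5:**
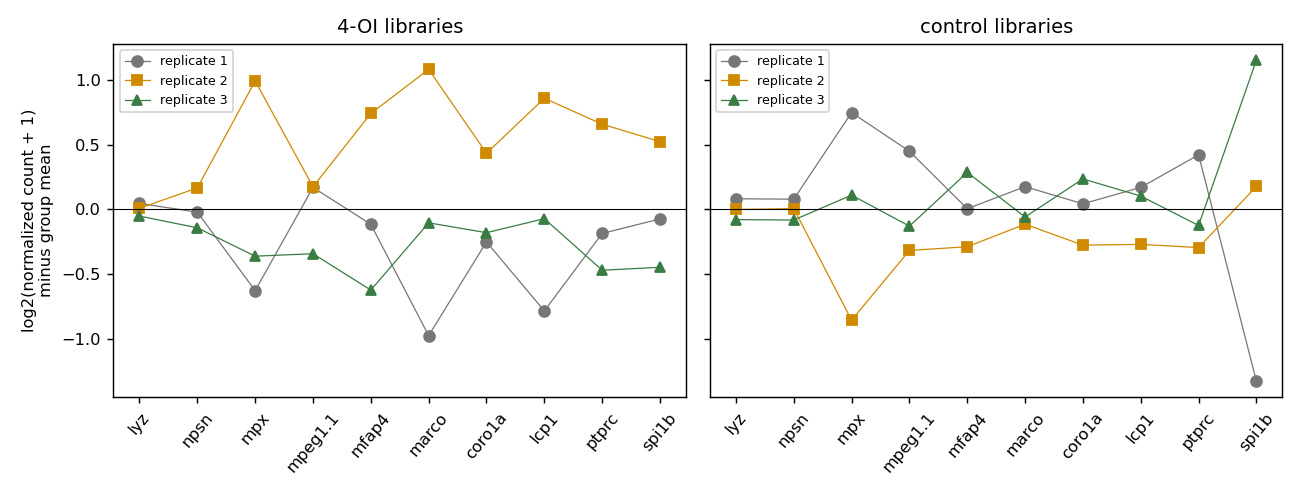
Deviation of each library from its group mean on the scale log2(normalized count + 1) for the 10 genes, 4-OI libraries left and control libraries right; lines only join the points of a library. In the 4-OI panel replicate 2 lies highest for every gene except lyz, where the 3 libraries nearly coincide, and it is level with replicate 1 for mpeg1.1.

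The genes whose levels over the 6 libraries were most like the mean standardized profile of the set were hpxb, c4b, ykt6, CR753886.1 and scarb1, out of 15470 genes that averaged at least 50 normalized counts. Their Pearson correlations with that profile were 0.998, 0.997, 0.993, 0.993 and 0.993, a description over 6 libraries in which the difference between groups dominates. All 5 had their highest value in 4-OI replicate 2. The profile they were chosen by was itself highest there, so this largely follows from the choice. For c4b, a complement gene, the values were 325, 1169.9 and 337 normalized counts in 4-OI libraries and 42.1, 30.0 and 40.9 in control libraries.

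Recovered depth was 18017272 to 23507208 reads in 4-OI and 14763897 to 21096650 reads in control libraries. On the first principal component, with 84.6% of the variance, the groups separated, and on the second, with 6.83%, 4-OI replicate 1 stood apart. Without that library the 7 rises were also called, while 7488 of 20352 tested genes rose and 7415 fell. Skeletal muscle markers took 11.4% to 12.3% of reads in 4-OI and 1.79% to 1.83% in control libraries, and mitochondrially encoded genes took 4.90% to 5.70% in 4-OI and 21.2% to 27.2% in control libraries. Pancreas and intestine markers took 0.862% to 1.61% of reads in 4-OI and 0.0137% to 0.0197% in control libraries. Skin markers took 0.937% to 1.81% in 4-OI and 0.366% to 0.462% in control libraries. Eye markers took 0.0762% to 0.330% in 4-OI and 0.818% to 1.35% in control libraries. The part of these tissue and composition differences in the 10 genes was not tested. When libraries were scaled to reads without mitochondrially encoded genes, the same 7 rises remained, while 5241 of 20352 tested genes rose and 8881 fell. The share of higher among all called genes was then 37.1%, against 50.5% with the deposited scaling.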

How the data were processed

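RNA of zebrafish larvae was sequenced after capture of messenger RNA, per the labels' protocols, in 6 libraries, 3 per group. The authors deposited signal values, namely normalized counts per gene. The build was GRCz11 and the tools included Salmon 1.9.0, DESeq2, STAR 2.7.10a, bcl2fastq 2.20.0.422 and fastp 0.23.2, per the submitters' processing notes, which give no roles or filters. Dividing each library by its smallest step gave whole reads within 0.01 for 100% of values.

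Genes averaging at least 10 normalized counts entered limma 3.58.1 as log2(normalized count + 1) (R 4.3.3, intensity trend, two-sided, Benjamini-Hochberg over 20352 genes). Log2 differences understate changes of low genes. An exact permutation test of 3 against 3 cannot go below p = 0.1. edgeR 4.0.16 called 7335 genes higher and 6698 lower on recovered reads; DESeq2 1.42.0, scalings, a replicate block and left-out libraries were further alternatives. Scripts were tested on simulated data, in which far fewer genes were changed than were called here. There limma recovered 15% of 2-fold and 75% of 4-fold changes, and 9 of its 99 calls were false. A gene that did not pass may therefore still differ. Floors and read counts cover counting error only.

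The 10 genes, the lists and the rule for named genes were chosen with earlier results of these data known. The rule took the 10 genes, up to 4 genes with the smallest p per list, set receptors, transcription factors and ligands, and near namesakes; other genes were named after their values were seen. A result that the rule would have named is not reported here. Of the set regulators, cebp1 lay under the filter. Short tissue lists served only for read shares and for counts of the highest treated library. Sequences, promoter motifs, gene lengths and coordinates were not used here. Figures were drawn with matplotlib 3.10.9.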

Additional observations from a re-analysis of the deposited data

How the results depend on the processing

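The 7 rises kept their direction and call in all 19 alternatives, and 7 or 8 of the 10 genes rose in each, with none lower. Among all tested genes, the number higher ran between 5241 and 8493 and the number lower between 5692 and 8881. The most genes rose with upper-quartile scaling, which was among the settings where 8 of the 10 rose. The lowest log2 differences were 3.84 for lyz, 2.64 for npsn, 3.68 for mpx, 1.04 for mpeg1.1, 1.82 for mfap4, 2.54 for coro1a and 3.43 for lcp1. The sign of ptprc turned with upper-quartile scaling (0.14) and without 4-OI replicate 3 (0.058) or control replicate 1 (0.033), with a range of -0.51 to 0.058 over the left-out libraries, and it passed in none. The call of marco was gained without 4-OI replicate 1, and that of spi1b with upper-quartile scaling and without control replicate 3. Other neutrophil, macrophage and shared leukocyte genes that rose numbered 48 of 68, against 35.0% of all tested genes. Of the 68, 12 reached the filter only through the 4-OI libraries and 2 only through the control libraries. Tests of those 12 are not given as support. Over the alternatives the rises ran from 35 of 49, among genes averaging at least 50 normalized counts, to 54 of 68 with upper-quartile scaling. Lymphoid genes that rose numbered 5, against 1 among genes averaging at least 50 normalized counts, where 4 were tested, 3 after quantile normalization, and 3 to 5 with each library left out; the cause was not tested. Upper-quartile scaling moved the median of all genes by 0.32 on the log2 scale, scaling to total reads by -0.11, and scaling to reads without mitochondrially encoded genes by -0.44. Deviations from the group mean were nearly uncorrelated between 4-OI and control libraries of the same replicate number (correlations between -0.06 and 0.05). With 3 libraries per group, this cannot show whether the libraries were paired. With a replicate block 6900 genes rose and 6779 fell, against 7115 and 6983, and the 10 genes gave 7 rises. Low read numbers limit mpx and csf3r in control libraries, and genes under the filter were not tested.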
